A study of Mus musculus with 6 samples.

Results

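Astrocytes are the star-shaped glial cells of the brain, and 35 genes that mark them or serve their main tasks were followed here through the forebrain of mice on a high-fat diet. They were taken by symbol from the 23282 entries of each count table, and all 35 were present and passed the count filter of the test. The RNA came from wild-type C57BL/6J male mice aged 8 to 10 weeks, fed either a normal chow diet (NCD, 3 libraries) or a high-fat diet with 60 kcal% fat (HFD, 3 libraries) for 10 days. Each library holds forebrain tissue with the olfactory bulbs and cerebellum removed, read by 3′ mRNA sequencing, in which reads lie near the poly(A) end of each transcript. Nothing in the labels says whether a library is 1 mouse or a pool, so p-values measure the spread between these libraries. Because whole tissue was read, fewer astrocytes and less RNA per astrocyte cannot be told apart.

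Astrocytes buffer potassium, water and glutamate around synapses, wrap vessels with endfeet, and couple to each other through connexins. They make most of the lipoprotein particles of the brain, supply neurons with metabolic fuel, and respond to injury by raising the filament protein GFAP and other reactive genes. Several of the 35 genes are also used elsewhere. Vim is made by vessels and ependyma, Apoe and Cst3 by microglia, Bcan by oligodendrocyte precursors, and Apoe, Clu, Itih3, Lcat and Cbs by liver.

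The total count per library was between 6842785 and 9689372. Counts of the astrocyte genes ran from 68 for Lcat or Cbs to 46635 for Sparcl1 in a single library, so all were read well above the floor of 3 counts, which is between 0.316 and 0.432 CPM. CPM, the usual scaling of read counts to library size, was taken after TMM normalization and is compared only within a gene. HFD replicate 3 stood farthest from the other libraries, and NCD replicate 3 came next. By chi-square over its degrees of freedom, NCD replicate 3 differed by 8.13 to 12.7 from NCD replicates 1 and 2 and HFD replicates 1 and 2. Those differed among themselves by 3.19 to 4.12, and HFD replicate 3 differed from all others by 14.1 to 18.1. In HFD replicate 3 the summed level of 6 pituitary hormone genes was 1264 CPM, against 2.08 to 8.95 CPM in the other 5 libraries. Gh, the growth hormone gene, had 7943 counts there against 12 to 71, and transcripts of thalamus and midbrain were low in this library. Of 12 listed thalamus and midbrain genes, 11 were tested, and their median deviation in this library was -0.50 on the log2 scale from the mean of the 6 libraries. Of these, Th and Foxa2 were lower on the HFD at an unadjusted p under 0.05, though not without this library, and 0 of 7 telencephalon genes had such a p. Over all genes tested, 1.98% were lower at such a p. A summed level of 10 liver genes lay between 14.3 and 64.3 CPM on the NCD and between 9.76 and 17.5 CPM on the HFD. Of the 10, 7 were tested and 6 were lower at an unadjusted p under 0.05 (Alb, Ahsg, Fgb, Apoa1, Apoa2 and Hpx), against the same 1.98%. Without HFD replicate 3 Apoa2 lost such a p (0.121 by edgeR). The others kept it, with values between 0.00404 for Alb and 0.0425 for Hpx. Ahsg was at 0 in HFD replicate 3.

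Between the diets, the astrocyte genes differed little. Of the 35, 21 had a log2 fold change (HFD minus NCD) within 0.1 of zero, 14 lay above zero and 21 below, and the median was -0.03. Over all 13771 genes tested the median was -0.0025, and 49.4% lay above zero. Only Atp1b2 had an unadjusted p under 0.05 by edgeR's quasi-likelihood test, 2.86% of the astrocyte genes against 3.68% of all genes tested. After Benjamini-Hochberg adjustment 0 of the 35 passed, with adjusted p between 0.979 and 0.999. The same held for 0 of the 13771 genes, which is 0% of them, while 507 had an unadjusted p under 0.05 and DESeq2 gave 2 adjusted calls. The replicate spread left little room for larger changes in most of these genes, as in most other genes at such counts. In 32 of the 35 genes the 95% interval of the fold change lay inside a 1.5-fold change in either direction, against 89.5% of the genes with at least as high a mean count. The other 3 were Itih3, Cbs and Lcat, with the lowest counts among the members. The interval of Atp1b2 reached down to a fold change of 0.668, only just inside that range. These intervals are for single genes and are not adjusted for their number.

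**Figure D1:**
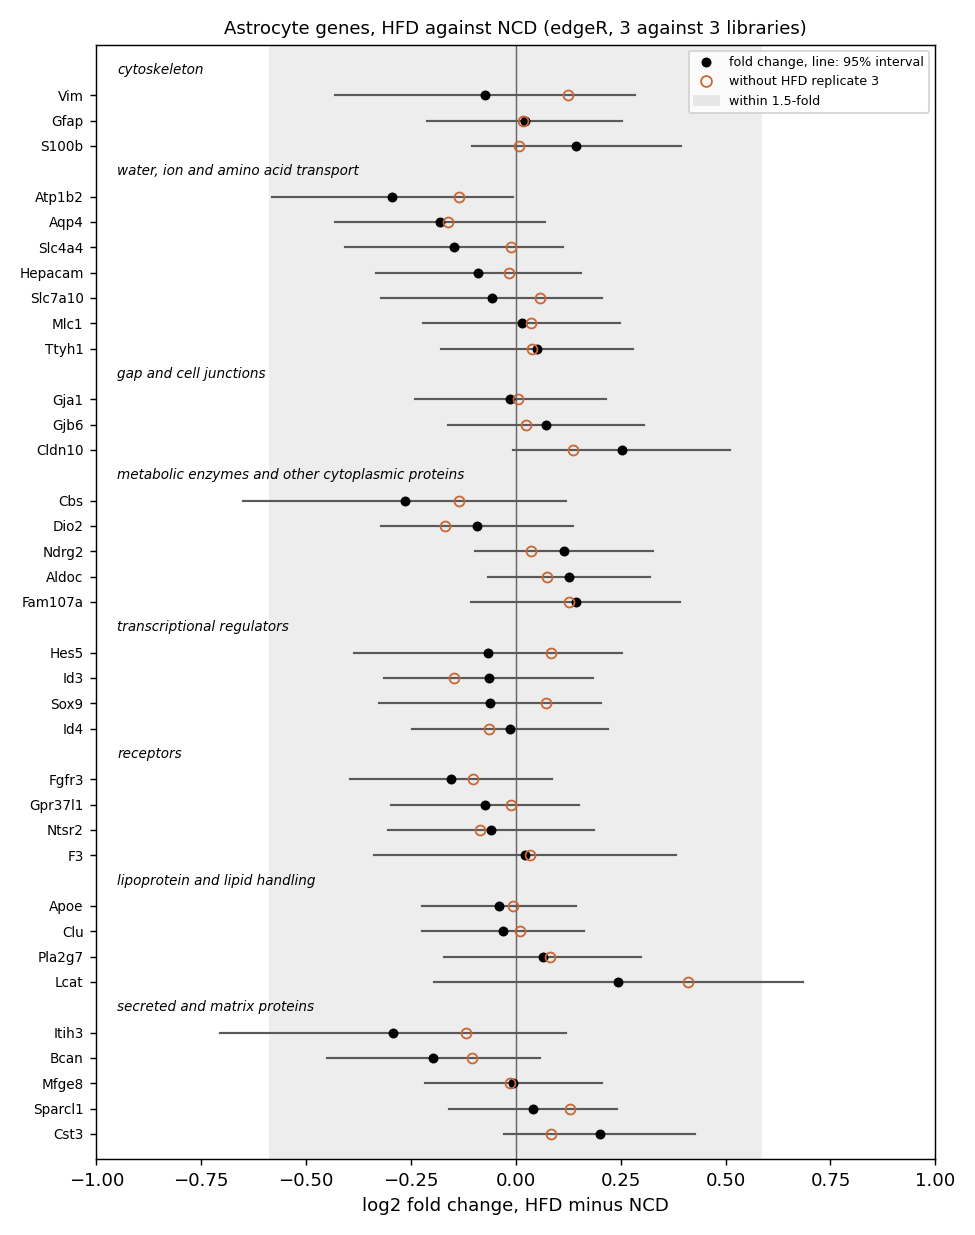
Log2 fold change (HFD minus NCD) of each of the 35 astrocyte genes, grouped by role, with its 95% interval from edgeR over 3 against 3 libraries and, as open circles, the value without HFD replicate 3. The grey band marks a 1.5-fold change in either direction, and the interval of 32 genes lies inside it.

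The 35 genes summed to 14021, 14725 and 14212 CPM in the NCD libraries, in the order of their replicate numbers, and to 14920, 14858 and 14318 CPM in the HFD libraries. The mean was 14319 ± 364 CPM (SD, n = 3) for the NCD group and 14699 ± 331 CPM (SD, n = 3) for the HFD group. The ranges of the diets overlapped. Counted per gene, so that Sparcl1 does not dominate, the median deviation from the mean of the 6 libraries was -0.03, 0.06 and 0.05 on the log2 scale for the NCD group and 0.04, 0.0014 and -0.04 for the HFD group. Within a diet the astrocyte genes varied as other genes did at such counts, with a median SD of 0.15 on the log2 scale, against 0.16 over the 8960 genes with at least the mean count of the lowest member.

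Gfap encodes the filament protein that defines astrocytes and rises when they become reactive. It had 59.0, 69.5 and 67.1 CPM in NCD replicates 1, 2 and 3, and 65.2, 66.8 and 66.5 CPM in the HFD libraries in the same order, which holds for all values by library. All HFD values lay within the NCD range, and the log2 fold change was 0.02 (SE, the standard error, 0.11, 95% interval -0.21 to 0.25). S100b, a calcium-binding protein of astrocytes, had 406, 402 and 471 CPM on the NCD and 442, 416 and 558 CPM on the HFD. The highest value came from HFD replicate 3, and the log2 fold change was 0.14 (SE 0.12) with it and 0.0065 without it. Without NCD replicate 3 the log2 fold change was 0.22 (unadjusted p = 0.102 by edgeR). Vim, the vimentin filament, had 42.8, 49.1 and 37.6 CPM on the NCD and 46.5, 47.5 and 28.7 CPM on the HFD. HFD replicate 3 was the lowest of the 6 libraries, while the other HFD values lay within the NCD range, and the log2 fold change of -0.07 (SE 0.17) was 0.12 without that library.

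**Figure D2:**
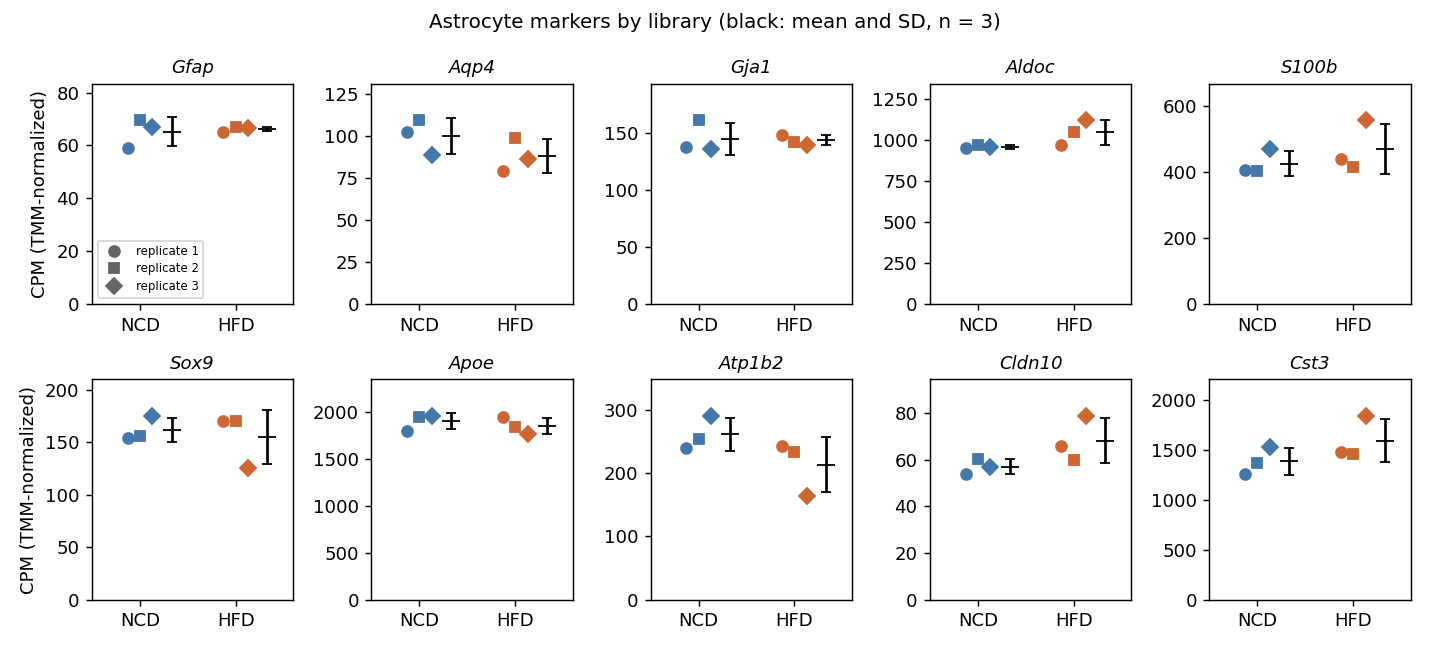
TMM-normalized CPM of 10 astrocyte genes in each library, with the diet on the x axis, a marker shape for each replicate number, and the mean and SD (n = 3) in black. Only for Aldoc do the 3 HFD values all lie above the NCD values. HFD replicate 3 is the lowest point for Sox9, Apoe and Atp1b2 and the highest for Aldoc, S100b, Cldn10 and Cst3.

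The promoter of Gfap is shown because STAT signalling is a textbook route to Gfap expression, and that of Cldn10 because it had the highest log2 fold change among the astrocyte genes. Both are from RefSeq on GRCm38.p6, cover 250 bases before to 50 after the annotated start, and are printed 5′ to 3′ on the gene's strand. Gfap lies on the minus strand at chr11:102897151-102897450, with a STAT motif (TTCNNNGAA) in capitals, and Cldn10 on the plus strand at chr14:118787621-118787920, with a CCAAT box in capitals, here on the other strand. The STAT match begins at -2 from the annotated start and so runs past it. Whether STAT factors bind this match was not tested.
Gfap: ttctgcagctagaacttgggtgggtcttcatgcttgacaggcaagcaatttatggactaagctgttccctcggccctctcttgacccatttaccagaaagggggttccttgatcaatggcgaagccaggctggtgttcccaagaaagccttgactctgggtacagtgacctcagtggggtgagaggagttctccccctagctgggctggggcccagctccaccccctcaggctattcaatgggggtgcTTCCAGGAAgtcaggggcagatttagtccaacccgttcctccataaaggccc
Cldn10: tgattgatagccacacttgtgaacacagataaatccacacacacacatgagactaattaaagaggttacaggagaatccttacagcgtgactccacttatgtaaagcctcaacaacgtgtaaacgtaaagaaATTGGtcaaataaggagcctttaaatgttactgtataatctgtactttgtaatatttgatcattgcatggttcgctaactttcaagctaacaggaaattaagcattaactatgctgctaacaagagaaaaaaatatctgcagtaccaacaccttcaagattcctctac
RefSeq promoters were matched for 30 of the 35 genes. Read on both strands, the STAT motif was in 3 of the 30 (Gfap, Ntsr2 and Pla2g7), or 10%, against 6.54% of 10447 promoters of genes tested, and the CCAAT box in 12, or 40%, against 38.4%. The TATA box (TATAAA) was in 5 of the 30 (Vim, F3, Dio2, Itih3 and Ndrg2), or 16.7%, against 7% of the promoters of genes tested. The astrocyte promoters had a median of 11 CpG pairs, against 21 for those of genes tested, at a median GC content of 59.7% and 61%. The AP-1 motif TGANTCA was in 2 (F3 and Gja1), and the SOX motif AACAAT and the palindromic NFI motif were in 0 of the 30 windows, against 5.75% and 0.727% of the promoters of genes tested. A match is a description of the letters and not a measured site.

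Genes of water, ion and amino acid transport were the group with the lowest median, -0.09 over 7 genes, with 2 above zero and 5 below. Without HFD replicate 3 this median was -0.010, and those of the receptors (-0.048) and the secreted and matrix proteins (-0.013) were lower. Atp1b2 encodes the beta subunit common in glia of the sodium-potassium pump, which astrocytes use to clear potassium. It had 239, 254 and 290 CPM on the NCD and 242, 234 and 163 CPM on the HFD, so that the log2 fold change was -0.29 with an SE of 0.14. Its unadjusted p was 0.0456 and its adjusted p 0.979 by edgeR. HFD replicate 1 lay within the NCD range, HFD replicate 2 slightly under it, and HFD replicate 3 far below. Without HFD replicate 3 the log2 fold change was -0.14 (unadjusted p = 0.173), without NCD replicate 3 it was -0.21 (unadjusted p = 0.18), and without NCD replicate 2 it was -0.31 (unadjusted p = 0.0664). Over all alternatives, the adjusted p of the members ran from 0.839 to 0.9999. Aqp4, the water channel of the endfeet on chromosome 18 from 15389496 to 15410982 of GRCm38, had 102, 109 and 88.5 CPM on the NCD and 79.2, 99.0 and 86.1 CPM on the HFD. HFD replicate 2 lay within the NCD range and the other HFD libraries below it. The log2 fold change of Aqp4 was -0.18 (SE 0.12, 95% interval -0.43 to 0.07, unadjusted p = 0.147 by edgeR) and about as large without HFD replicate 3, at -0.16. Without NCD replicate 3 it was -0.26 (unadjusted p = 0.0504 by edgeR), and without NCD replicate 2 it was -0.11.

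Slc4a4, a sodium bicarbonate cotransporter, had 185, 197 and 198 CPM on the NCD and 193, 191 and 140 CPM on the HFD. Only HFD replicate 3 left the NCD range, and the log2 fold change of -0.15 became -0.01 without it. Hepacam and Mlc1 encode partner membrane proteins of the endfeet, and Slc7a10 a transporter of small neutral amino acids. With Ttyh1, a membrane protein of the tweety family, they had log2 fold changes between -0.09 and 0.05, and between -0.015 and 0.057 without HFD replicate 3. Ttyh1 had 592, 624 and 473 CPM on the NCD and 567, 589 and 592 CPM on the HFD. Its HFD values lay within the NCD range, in which NCD replicate 3 was the lowest. Outside the 35, Kcnj10, the inward rectifier potassium channel of astrocytes, had 117, 125 and 115 CPM on the NCD and 108, 111 and 73.4 CPM on the HFD. Its HFD values all lay under those of the NCD, as did those of 4.49% of all genes tested, and the log2 fold change was -0.29 (SE 0.14, unadjusted p = 0.0521) and -0.12 without HFD replicate 3.

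Of the junction genes, Gja1 and Gjb6 encode the main gap junction connexins of astrocytes. Gja1 had 137, 161 and 136 CPM on the NCD and 148, 142 and 140 CPM on the HFD. The HFD values lay within the NCD range, with a log2 fold change of -0.01 (SE 0.11, 95% interval -0.24 to 0.21). Gjb6 had 63.9, 68.1 and 60.1 CPM on the NCD and 66.8, 63.4 and 71.8 CPM on the HFD, and its ranges overlapped, with a log2 fold change of 0.072, or 0.023 without HFD replicate 3. Cldn10, a claudin, had 53.9, 60.2 and 57.0 CPM on the NCD and 65.6, 59.9 and 78.6 CPM on the HFD. HFD replicates 1 and 3 lay above the NCD range and HFD replicate 2 inside it, and the log2 fold change of 0.25 (SE 0.12, unadjusted p = 0.0549) was 0.14 without HFD replicate 3.

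Among the enzymes and other cytoplasmic proteins, Aldoc encodes aldolase C, the glycolytic aldolase of the brain. It had 950, 971 and 956 CPM on the NCD and 971.4, 1050 and 1121 CPM on the HFD. The 3 HFD values all lay above the 3 NCD values, though HFD replicate 1 exceeded NCD replicate 2 by less than 0.1 CPM. Aldoc was the only gene of the 35 whose diets did not overlap, 2.86% of them, against 8.81% of all genes tested, or 4.31% in the direction of Aldoc. With 3 libraries a group the exact permutation test cannot give a p under 0.1, two-sided, and the log2 fold change was 0.13 (SE 0.09, 95% interval -0.07 to 0.32, unadjusted p = 0.182), or 0.075 without HFD replicate 3. Ndrg2, a stress-regulated cytoplasmic protein abundant in astrocytes, and the actin-associated Fam107a had log2 fold changes of 0.11 and 0.14, and of 0.036 and 0.13 without HFD replicate 3. Fam107a had 190, 239 and 176 CPM on the NCD and 221, 219 and 228 CPM on the HFD, which lay within the NCD range. Dio2, which turns thyroxine into active thyroid hormone, had a log2 fold change of -0.09, or -0.17 without HFD replicate 3. Cbs, which starts the transsulfuration of homocysteine, was counted 117, 132 and 124 times in the NCD group and 91, 112 and 68 times in the HFD group. Scaled to library size the ranges overlapped, with HFD replicate 1 at 13.10 CPM and NCD replicate 3 at 13.06 CPM. Means of 13.9 ± 0.744 CPM (SD, n = 3) in the NCD group and 11.6 ± 1.96 CPM (SD, n = 3) in the HFD group gave a log2 fold change of -0.26 (SE 0.18, 95% interval -0.65 to 0.12), so a 1.5-fold decrease lay inside its interval. Without HFD replicate 3 it was -0.14.

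The 4 transcriptional regulators all had log2 fold changes just below zero, between -0.07 and -0.01, and without HFD replicate 3 between -0.15 for Id3 and 0.084 for Hes5. Sox9, a factor of the astrocyte fate on chromosome 11 from 112782224 to 112787760, had 154, 156 and 175 CPM on the NCD and 170, 170 and 125 CPM on the HFD. HFD replicate 3 was the lowest library and the other HFD libraries lay inside the NCD range. The log2 fold change of -0.06 (SE 0.12) was 0.07 without HFD replicate 3. Hes5, a target of Notch signalling, had 33.8, 32.6 and 34.3 CPM on the NCD and 32.2, 38.7 and 24.9 CPM on the HFD, so the HFD values lay on both sides of the NCD range, and its log2 fold change of -0.07 became 0.08 without HFD replicate 3. Id3 and Id4 encode helix-loop-helix proteins that cannot bind DNA and hold back neuronal factors. Id4 had 61.7, 59.97 and 57.7 CPM on the NCD and 56.0, 58.4 and 63.2 CPM on the HFD. The ranges overlapped, with a log2 fold change of -0.01 (SE 0.11). Exons of A330033J07Rik lie opposite those of Id4, and the use of strand in the counting is not given in the sources used here. A330033J07Rik had 2, 4 and 1 counts in the NCD group against 9, 10 and 10 in the HFD group, small beside 389 to 556 for Id4. Fgfr3, Slc7a10, Pla2g7, Dio2, Ttyh1 and Hes5 also share exon sequence with a gene on the other strand, so their values carry the same limit.

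Of the receptors, Fgfr3, which binds fibroblast growth factors, had 70.9, 72.4 and 81.1 CPM on the NCD and 74.4, 65.2 and 62.0 CPM on the HFD. HFD replicate 1 lay inside the NCD range and the others under it, with a log2 fold change of -0.16 (SE 0.11, unadjusted p = 0.192), or -0.10 without HFD replicate 3. The orphan receptor Gpr37l1 and the neurotensin receptor Ntsr2 had log2 fold changes of -0.07 and -0.06, and of -0.011 and -0.085 without HFD replicate 3. F3, the tissue factor that starts coagulation, had 34.9, 33.8 and 20.8 CPM on the NCD and 31.0, 29.9 and 29.7 CPM on the HFD. NCD replicate 3 was the lowest library, and the log2 fold change of 0.02 was -0.19 without it.

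Of the 4 lipoprotein genes, 2 lay above zero and 2 below, with a median of 0.02 (0.046 without HFD replicate 3). Apoe, the main lipid carrier of the brain, had 1801, 1949 and 1955 CPM on the NCD and 1941, 1842 and 1767 CPM on the HFD. The ranges overlapped, and with the lowest standard error of the 35 genes the log2 fold change was -0.04 (SE 0.09, 95% interval -0.22 to 0.14). Clu, or apolipoprotein J, had a log2 fold change of -0.03, and Pla2g7, which breaks down platelet-activating factor and oxidized phospholipids, one of 0.06. Lcat, which esterifies cholesterol on lipoproteins, was counted 78, 115 and 90 times in the NCD group and 92, 134 and 68 times in the HFD group. In CPM the low libraries were NCD replicates 1 and 3 (9.63 and 9.48) and HFD replicate 3 (9.35), and the ranges overlapped. Its log2 fold change of 0.24 (SE 0.21, 95% interval -0.20 to 0.68) was 0.41 without HFD replicate 3 (unadjusted p = 0.0524). The liver genes named above were highest in NCD replicates 1 and 2, and Alb had 13.5, 26.9 and 3.90 CPM on the NCD and 2.02, 5.46 and 1.79 CPM on the HFD. The part of liver RNA in Apoe, Clu, Lcat, Cbs and Itih3 was not tested.

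The log2 fold changes of the 5 secreted and matrix proteins lay between -0.29 and 0.20, and between -0.12 and 0.13 without HFD replicate 3. Itih3, a hyaluronan-binding heavy chain, had 20.5, 32.1 and 23.7 CPM on the NCD and 20.6, 26.1 and 15.4 CPM on the HFD. NCD replicate 2 was the highest and HFD replicate 3 the lowest, and the log2 fold change was -0.29 (SE 0.20, 95% interval -0.70 to 0.12, unadjusted p = 0.153) with that library and -0.12 without it. Bcan, the matrix proteoglycan brevican, had 181, 176 and 207 CPM on the NCD and 189, 161 and 142 CPM on the HFD. HFD replicate 1 lay inside the NCD range and the others below it, with a log2 fold change of -0.20 (SE 0.12, unadjusted p = 0.119) that was -0.10 without HFD replicate 3. Sparcl1, or hevin, which promotes synapse formation, had 4712, 4880 and 4280 CPM on the NCD and 5017, 5096 and 4157 CPM on the HFD. Its HFD values lay on both sides of the NCD range, with a log2 fold change of 0.04 (SE 0.09), or 0.13 without HFD replicate 3. Mfge8, which bridges dying cells to phagocytes, had a log2 fold change of -0.0056. Cst3, the protease inhibitor cystatin C, had 1264, 1366 and 1535 CPM on the NCD and 1482, 1461 and 1840 CPM on the HFD. Only HFD replicate 3 exceeded the NCD range, and the log2 fold change of 0.20 (SE 0.11, unadjusted p = 0.0808) was 0.08 without it.

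The deviations of the 35 genes were widest in HFD replicate 3, and they went both ways. Their SD was 0.24 on the log2 scale in this library and between 0.10 and 0.17 in the others. Over all genes tested the SD was 0.34 there and between 0.23 and 0.31 elsewhere. HFD replicate 3 was the lowest library for 16 of the 35 genes and the highest for 7, against 27.1% and 26.2% of all genes tested. The 7 highest were Cldn10, S100b, Cst3, Ndrg2, Aldoc, Gjb6 and Id4. The 16 lowest included Itih3, Vim, Atp1b2, Cbs, Slc4a4, Hes5 and Sox9.

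**Figure D3:**
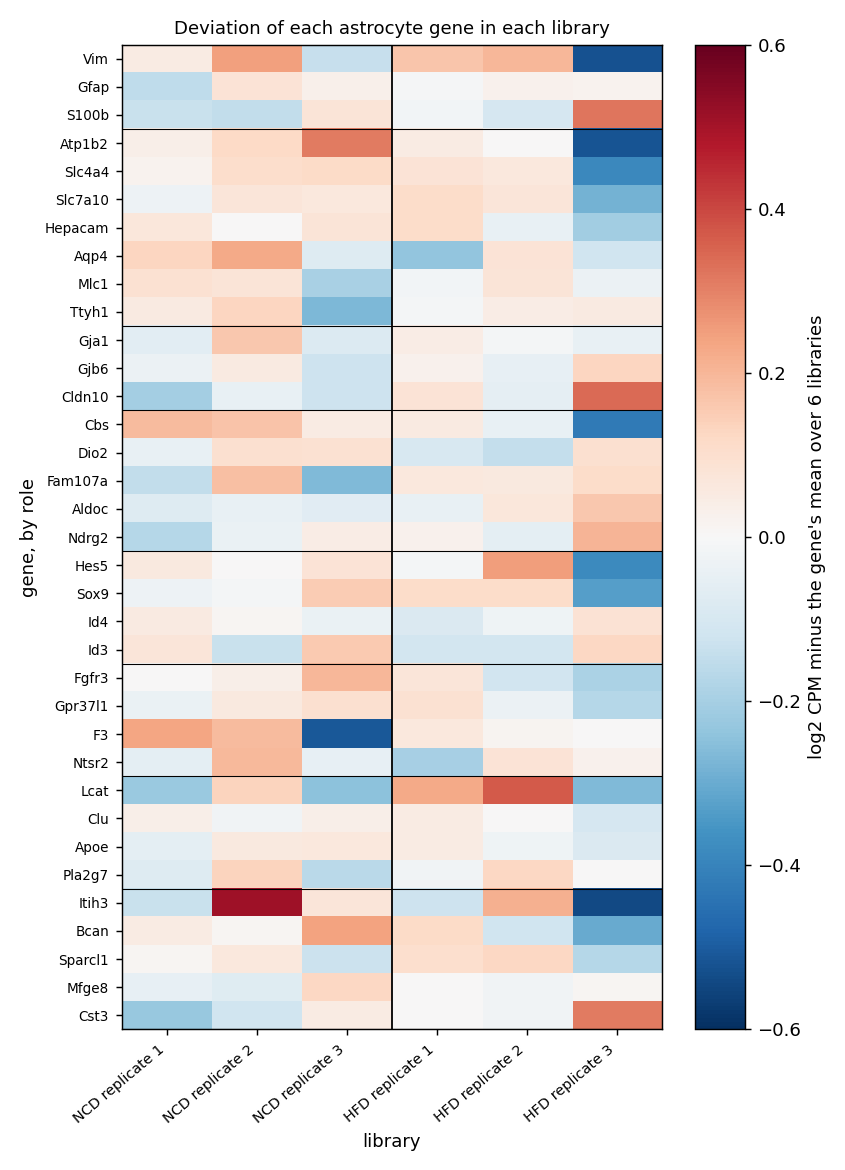
Deviation of each astrocyte gene in each library, as log2 CPM minus the gene's mean over the 6 libraries, with genes in rows by role (lines part the roles) and libraries in columns. The column of HFD replicate 3 is the most strongly coloured, with Itih3, Vim and Atp1b2 low and Cldn10, S100b and Cst3 high.

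Transcript length moved with this library. Taking the longest protein-coding transcript of each gene in GENCODE vM21, which was matched for 92.5% of the genes tested, and splitting the genes by length into 5 classes, the class with the shortest transcripts had a median deviation of 0.14 in HFD replicate 3 and the class with the longest -0.11. In the other 5 libraries these classes lay between -0.04 and 0.04. The 18 astrocyte genes with transcripts up to their median length of 2648 bases had a median deviation of 0.0087 in HFD replicate 3, and the 17 with longer transcripts -0.17. Across the 35 genes Spearman's rho between length and this deviation was -0.29, and across all genes it was -0.28, as descriptions within 1 library. The part of RNA quality, and that of the pituitary and midbrain transcripts given above, in these deviations was not tested. Without HFD replicate 3 the median log2 fold change of the 35 genes was 0.01, 0 genes had an unadjusted p under 0.05 in edgeR's test, and the interval lay inside a 1.5-fold change for 34 of the 35.

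**Figure D4:**
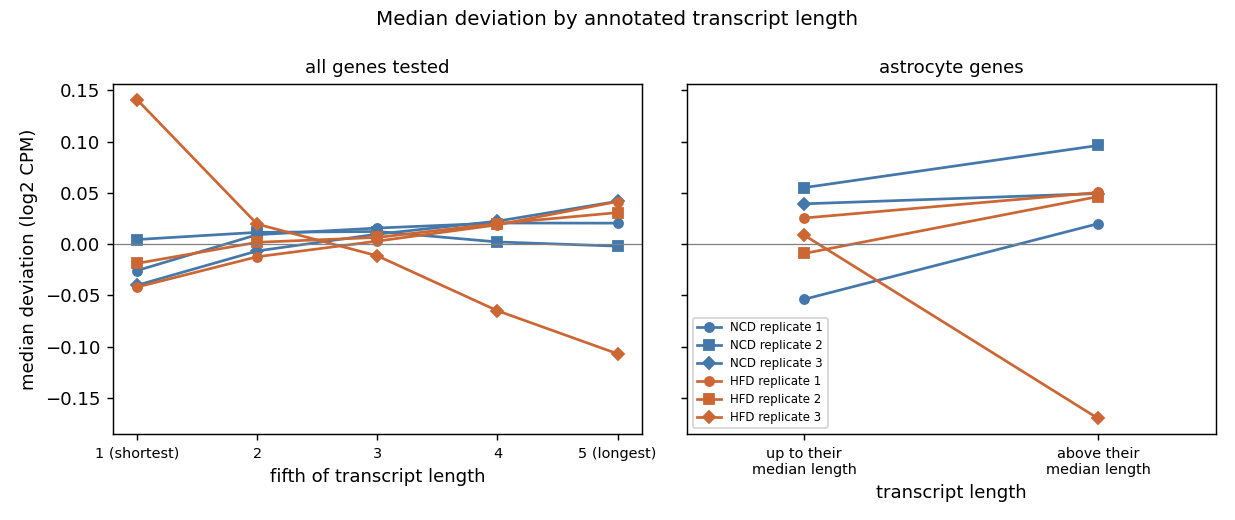
Median deviation (log2 CPM minus the gene's mean over 6 libraries) by annotated transcript length, for all genes tested in 5 length classes (left) and for the 35 astrocyte genes below and above their median length (right), with a line for each library. The line of HFD replicate 3 runs from 0.14 to -0.11 over the classes, and lies at -0.17 for the longer astrocyte genes.

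Other genes of astrocytes were counted in the same way. Of 51 further astrocyte genes listed, 50 were tested, 0 were higher and 1 lower at an unadjusted p under 0.05, against 1.71% higher and 1.98% lower over all genes tested, and the median log2 fold change was -0.06, or -0.02 without HFD replicate 3. They summed to 6218, 6430 and 6569 CPM on the NCD and 6337, 6288 and 5692 CPM on the HFD, with HFD replicate 3 the lowest library and the other HFD libraries inside the NCD range. The gene was Tril, an accessory protein of Toll-like receptors, with 31.0, 32.1 and 43.3 CPM on the NCD and 31.4, 29.8 and 22.7 CPM on the HFD. The ranges overlapped, and the log2 fold change of -0.34 (SE 0.16, unadjusted p = 0.048) was -0.22 without HFD replicate 3 (unadjusted p = 0.172). Of the 6 genes of glutamate uptake and the glutamine cycle, 0 had an unadjusted p under 0.05 in edgeR's test. Slc38a5, a glutamine transporter of the list, had 10, 23 and 11 counts in the NCD group against 29, 38 and 8 in the HFD group. HFD replicates 1 and 2 lay above the NCD range and HFD replicate 3 below it, and the log2 fold change was 0.95 (SE 0.49, unadjusted p = 0.0693), or 1.34 with an unadjusted p of 0.0078 by edgeR without HFD replicate 3. The log2 fold change was -0.08 (SE 0.09) for Slc1a2 and -0.04 (SE 0.09) for Slc1a3, the glutamate transporters of astrocytes, and -0.06 (SE 0.08) for the glutamine synthetase gene Glul.

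Genes that rise in reactive astrocytes form a further list. Of 37 listed, 26 had enough counts for the test, 1 was higher and 0 were lower at an unadjusted p under 0.05, against the same 1.71% and 1.98% of all genes tested. The diets did not overlap for 3 of the 26, against 8.81% of all genes tested. The median log2 fold change was 0.02, and it turned to -0.02 without HFD replicate 3. Their summed level was between 301 and 334 CPM on the NCD and between 300.4 and 323 CPM on the HFD. S100a10, a annexin partner that vessels also express, had 25.2, 26.5 and 23.2 CPM on the NCD and 28.2, 32.9 and 39.5 CPM on the HFD. All HFD values lay above the NCD values, and the log2 fold change was 0.43 with an SE of 0.15 (unadjusted p = 0.00967, adjusted p = 0.979 by edgeR). Without HFD replicate 3 it was 0.30 (unadjusted p = 0.045 by edgeR). Serpina3n, a protease inhibitor induced in reactive astrocytes, was counted 67, 126 and 73 times in the NCD group and 76, 112 and 62 times in the HFD group. Its ranges overlapped, with a log2 fold change of 0.10 (SE 0.24). Lcn2 was at or under 2 counts in every library, which is below the floor of 3.

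Beside these values, other cell types differed as follows. Of 12 neuron, 10 oligodendrocyte, 12 microglia and 10 endothelial markers, 0 had an unadjusted p under 0.05 in the same test, against 3.68% of all genes tested. The medians of their log2 fold changes were -0.03 for neurons, 0.08 for oligodendrocytes, 0.11 for microglia and 0.12 for endothelium. Without HFD replicate 3 they were 0.011 for neurons, 0.086 for oligodendrocytes, 0.052 for microglia and 0.28 for endothelium, and 3 genes were higher at an unadjusted p under 0.05. These were Pecam1 (0.0102) and Flt1 (0.0469) of endothelium and the neurofilament gene Nefm (0.032). Over all genes, 182 were higher at such a p in that fit, against 235, or 1.71% of 13771, with all 6 libraries. The 12 microglial genes summed to between 513 and 518 CPM on the NCD and between 526 and 563 CPM on the HFD. These sums did not overlap, though 0 of the 12 genes separated the diets, against 8.81% of all genes tested. The 563 CPM came from HFD replicate 3, where their median deviation was 0.21, against 0.0036 and -0.02 in HFD replicates 1 and 2. The 12 neuronal genes summed to between 6998 and 7359 CPM on the NCD and between 6790 and 7162 CPM on the HFD. Of 10 ependyma and tanycyte genes, 9 were tested, with a median of -0.22, or -0.17 without HFD replicate 3. Only Rsph1, a radial spoke protein of motile cilia, was lower at an unadjusted p under 0.05 (0.00684 by edgeR), against 1.98% of all genes tested. Its HFD values all lay under those of the NCD, as did those of 4.49% of all genes tested. Its log2 fold change was -0.80, or -0.71 without HFD replicate 3 (unadjusted p = 0.0221 by edgeR). The 10 ependyma and tanycyte genes summed to between 140 and 144 CPM on the NCD and between 136 and 151 CPM on the HFD. Most of this sum was Crym, with 99.1, 90.6 and 84.3 CPM on the NCD and 98.3, 105 and 103 CPM on the HFD. The sum therefore says little about the rest of the list, in which most log2 fold changes lay below zero. Rax, which marks tanycytes, was at 0 in 5 libraries. Of 8 choroid plexus genes, only the potassium channel gene Kcnj13 had an unadjusted p under 0.05. It was higher, with a p of 0.0271, against 1.71% of all genes tested that were higher at such a p. Without HFD replicate 3 its p was not under 0.05. Of 6 oligodendrocyte precursor and 7 fibroblast genes 0 had such a p, and the median deviation of the fibroblast genes in HFD replicate 3 was -0.69. Their median log2 fold changes were -0.04 for precursors and -0.19 for fibroblasts, and 0.12 and -0.02 without that library. The precursor genes summed to between 240 and 269 CPM on the NCD and between 206 and 273 CPM on the HFD. The part of these cell types in Vim, Bcan, Dio2, Apoe and Cst3 was not tested.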

How the data were processed

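The authors prepared QuantSeq 3′ libraries, trimmed the reads, aligned them to mm10 with Bowtie2 and deposited raw read counts per gene symbol, taken with Bedtools from unique and multiple alignments, so that reads of near-identical copies may be shared. The annotation and the use of strand are not given in the sources used here. The deposited counts (6842785 to 9689372 per library) are not normalized, and the quantile normalization of the methods was not applied to them.

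Diets were compared in R 4.3.3 with edgeR 4.0.16 (filterByExpr with a minimum count of 10 and total of 15, TMM, glmQLFit and glmQLFTest, no covariate), with Benjamini-Hochberg adjustment over 13771 genes. Standard errors are the log2 fold change over the square root of F. Deviations used log2 CPM with a prior count of 2. On simulated counts with 200 of 13771 genes changed 2-fold, the test recovered 79.5%, and 95.4% of the 95% intervals held the true value. These counts were drawn from the fitted dispersion trend, without a divergent library such as HFD replicate 3, so coverage near 95% was largely built in. They check the code, and do not show how well the intervals hold for these libraries or how often smaller changes are found. Floors and intervals cover counting error or replicate spread only, since the counts carry no molecular identifiers. Every pair of libraries differed beyond counting error (chi-square over its degrees of freedom, 3.19 to 18.1).

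The 35 genes, the lists and the tests were chosen with earlier results of these data known. All 35 genes are named, with values by library for the defining markers, for genes with an unadjusted p under 0.05 or separate diets, and for the extremes of each role. In the other lists, genes with such a p are named. Further genes, among them Slc1a2, Kcnj10, Serpina3n and Alb, were chosen after their values were seen. Alternatives used DESeq2 1.42.0, quantile normalization of log2(CPM + 1) with limma 3.58.1, other scalings and filters, a replicate block, and leaving out single libraries. Of the 35 genes, 7 share exon sequence with a gene on the other strand and 0 with one on the same strand in GENCODE vM21 on GRCm38. Python 3.11.15 with pandas 2.3.3 and matplotlib 3.10.9 served for tables and figures.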

Additional observations from a re-analysis of the deposited data

How the results depend on the processing

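The adjusted p of every one of the 35 genes stayed over 0.05 in all 14 alternatives, and the count with an interval inside a 1.5-fold change stayed between 29 and 34. Itih3, Cbs and Lcat had the lowest counts of the 35 genes and SEs of 0.20, 0.18 and 0.21, and the part of depth in these was not tested. Over all genes, the number with an adjusted p under 0.05 was 2 with DESeq2, 23 without a count filter and between 0 and 3 with each library left out, the 3 without NCD replicate 3. Those higher at an unadjusted p under 0.05 were 152 with library size alone and 408 without a filter, against 235, and between 182 and 366 with each library left out, the 366 without HFD replicate 1. Those lower were 494 without a filter, against 272, and between 221 and 407 with each library left out, the 407 without HFD replicate 1. Of the astrocyte genes, 2 were higher at an unadjusted p under 0.05 without a filter (Cldn10 and Cst3), and between 0 and 1 with each library left out, namely Fam107a without NCD replicate 2, Cst3 without NCD replicate 3 and Cldn10 without HFD replicate 2. The number lower was 0 with library size alone, 0 after quantile normalization with limma and 0 with the replicate block, and between 0 and 2 with each library left out, with Bcan added without HFD replicate 1 and Itih3 without HFD replicate 2. The diets did not overlap for 0 astrocyte genes with library size alone, for 0 with at least 10 counts in every library, and for between 3 and 8 with each library left out, where fewer libraries have to separate.

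Replicate numbers are shared between the diets, but same-numbered libraries did not deviate together, with correlations of -0.03, 0.05 and -0.06 over 13771 genes, so the numbers were not taken as pairs. With the replicate block 0 astrocyte genes had an unadjusted p under 0.05, and 157 of all genes were higher and 214 lower. NCD replicate 1 correlated best with HFD replicate 3, so not every library correlated best with its own number.

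The sign turned in 25 fits of single genes, each of them with a p over 0.05. Of these fits, 6 were without HFD replicate 3 and 6 without NCD replicate 3. With library size alone the log2 fold change was -0.0078 for Mlc1 and -0.0032 for F3, and after quantile normalization it was 0.0020 for Clu. With each library left out in turn it ran from -0.045 to 0.069 for Gfap, from -0.058 to 0.071 for Gja1, from -0.13 to 0.072 for Sox9, from -0.12 to 0.029 for Ntsr2, from -0.063 to 0.011 for Clu, from -0.012 to 0.13 for Sparcl1, from -0.073 to 0.063 for Mlc1 and from -0.13 to 0.057 for Slc7a10. It ran from -0.19 to 0.15 for F3, from -0.15 to 0.0012 for Id3, from -0.063 to 0.024 for Id4, from -0.20 to 0.12 for Vim, from -0.042 to 0.060 for Mfge8, from -0.061 to 0.13 for Ttyh1 and from -0.23 to 0.084 for Hes5. The cause was not tested.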
